A study of Drosophila melanogaster with 48 samples.

Results

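The regions described here are the open chromatin regions of chromosome 4 of Drosophila melanogaster in 10 peak lists. All rows of a list on chromosome 4 were taken, and rows that carry the same peak number were joined into 1 region. The lists held between 265 regions of chromosome 4 (HA-Twi titration list) and 615 (Twi list). Merging regions of different lists that overlapped by at least 1 bp gave 725 merged regions on chromosome 4, of 82962 in the whole series. The arms 2L, 3L and 3R, with 15780, 17379 and 23160 merged regions, served for comparison.

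The series measured chromatin accessibility by ATAC-seq, in which a transposase inserts adapters into open DNA, in S2 cells, a cultured embryonic line with the character of insect blood cells. It holds 48 libraries in 24 groups of 2, all labelled as 48 h after induction. CuSO4 was the inducer, and the 0 uM groups of the titrations received none. S2 cells with a copper-inducible transgene made full-length Grainyhead (Grh) at 100 uM CuSO4, Zelda (Zld) at 1000 uM or Twist (Twi) at 40 uM, or only the DNA-binding domain (DBD) of Grh at 20 uM or of Zld at 100 uM. Wild-type S2 cells were given CuSO4 at the dose of the factor cells they served as controls. In the titrations the Grh cells received 0, 25, 100 or 400 uM, the Zld cells 0, 500, 1000 or 1500 uM, and cells with HA-tagged Twi 0, 10, 40 or 160 uM. The Grh DBD titration libraries received 80 uM and the Zld DBD titration libraries 400 uM. The authors called the peaks of a main list over wild-type and factor libraries jointly, and those of a full-length titration list over its whole dose series. For the 2 lists of the DBD titrations, the libraries that entered them are not stated in the labels. The copper dose differs between the factors, so dose and factor cannot be told apart between lists. A region in a factor's list may be open with the factor, without it, or both.

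Chromosome 4 is the small dot chromosome of the fly. Much of its length carries the marks of heterochromatin, including the protein HP1a, and repeats lie between its genes, yet most of these genes are transcribed. The protein POF binds the active genes of this chromosome and raises their output, in a way often compared with dosage compensation of a sex chromosome. The 3 proteins made in the cells are transcription factors. Grh acts in the epidermis, Zld opens chromatin in the early embryo and Twi sets up the mesoderm.

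In the gene table of Release 6, chromosome 4 held 114 genes, of which 80 were protein-coding, over 1.32 Mb (up to position 1319130). This is 60.6 protein-coding genes per Mb, against 113 on 2L, 97.5 on 3L and 106 on 3R. The genes were long, with a median of 10090 bp on chromosome 4 against 1986 bp on 2L, 2130 bp on 3L and 2105 bp on 3R. By the same annotation, 80.7% of the bases of chromosome 4 lay inside a gene, against 64.6% to 72.7% on the arms, and 14.2% lay within 500 bp of a gene end, against 18.3% on the arms together. Chromosome 4 thus has fewer bases near gene ends and more inside genes.

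No list belongs to 1 library, so there are no values per replicate and the depth is unknown. Intervals are 95% exact intervals (Poisson for densities, binomial for shares) that cover counting error only. Regions are not replicates of a condition. The p-values describe these lists, not the spread between cultures, and the 10 lists share many regions, so they are not 10 independent tests.

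With all regions of each list, the density per Mb on chromosome 4 was close to that of the arms in most lists. It stood highest against them in the Zld list. In the Zld list chromosome 4 held 462 regions, or 350.2 per Mb (319 to 384), against 262 on 2L, 248 on 3L and 247 on 3R. This is 1.39 times the density of the arms together. Chromosome 4 also took its highest share of a list there, 1.36%, against 0.84% to 1.13% in the other 9 lists. The Zld titration list, from separate libraries, held 279 regions at 212 per Mb (187 to 238), 1.06 times the arms.

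In the Grh list the density was 284 per Mb (256 to 315), below all 3 arms and 0.797 times their joint density of 357 per Mb. The Twi list was likewise sparse on chromosome 4, with 466 per Mb (430.1 to 505) against 589 per Mb on the arms, a ratio of 0.791. These are the 2 longest lists, and with stronger regions alone the ratio lay above 1. With regions of a −log10 q of at least 10 (q is the authors' false discovery rate of a peak), the ratio was 1.04 for the Grh list and 1.06 for the Twi list. With the strongest 25397 regions of each list, it was 1.03 and 1.13.

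With all their regions, the other lists gave ratios near 1. The Grh titration list held 291 regions, at 0.982 times the density of the arms, and the HA-Twi titration list 265, at 1.08 times. The Grh DBD list held 340 regions (ratio 1.11), its titration list 285 (0.997), the Zld DBD list 352 (0.969) and its titration list 300 (1.01). Chromosome 4 was denser than each of the 3 arms in 4 lists: Zld, Zld titration, HA-Twi titration and Grh DBD. With regions of a −log10 q of at least 10, the Zld list did not stand out. Its ratio was 1.28, against 1.33 for Grh DBD, 1.14 for its titration, 1.28 for Zld DBD and 1.22 for its titration. The Grh, Zld and HA-Twi titration lists gave 1.02, 1.06 and 1.04. With lists of equal length Zld was highest with 1.29, followed by Grh DBD with 1.22.

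The arms themselves varied far more along their length than chromosome 4 differed from them. They were laid out in 62 windows of the length of chromosome 4. In the Zld list these ranged from 8.34 to 504 regions per Mb with a median of 268, and 6 windows were denser than chromosome 4. In the other lists between 22 (Grh DBD) and 42 (Grh) of the 62 windows were denser. In the Zld list the 5 Mb of each arm next to the centromere held 112 regions per Mb and the rest of the arms 282. Against only those 5 Mb, chromosome 4 was 1.8 times (Grh) to 3.14 times (Zld) as dense, and against the arms without those 5 Mb it was denser than each arm in 1 list, that of Zld (ratio 1.24).

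**Figure D1:**
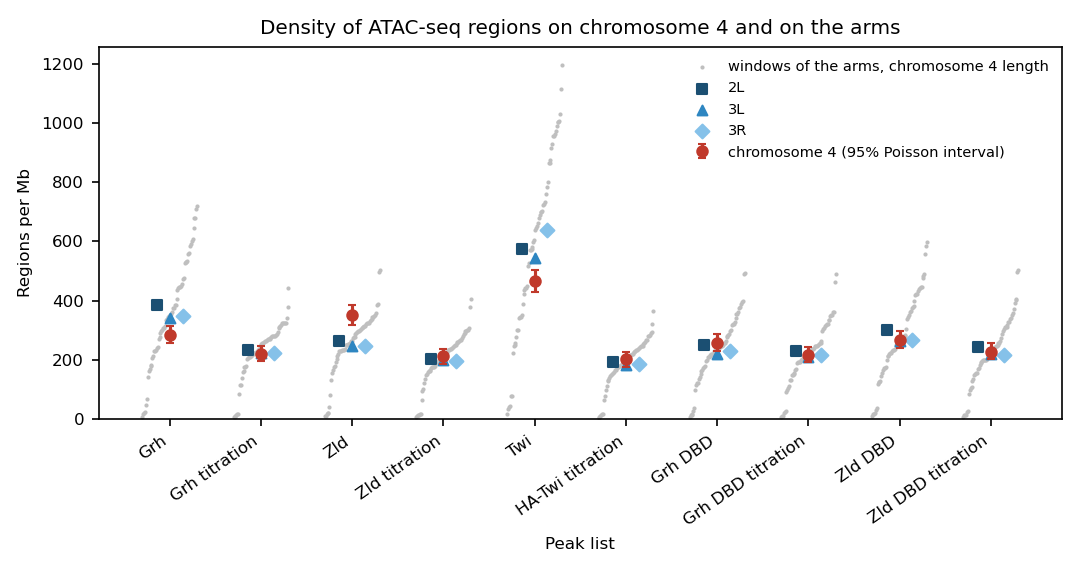
Regions per Mb (y axis) in each of the 10 peak lists (x axis) on chromosome 4 (circles, with 95% Poisson intervals), on 2L, 3L and 3R (squares, triangles and diamonds), and in 62 windows of the arms with the length of chromosome 4 (grey points, sorted). Chromosome 4 lies above 56 of the 62 windows in the Zld list and inside the spread of the windows in every list.

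Counted per gene, chromosome 4 was richer than the arms in all 10 lists. It held between 3.31 regions per protein-coding gene (HA-Twi titration) and 7.69 (Twi), where the arms together held 1.76 and 5.61 in the same lists. Its density in the Zld list was 5.78 per gene against 2.39 on the arms. The protein-coding genes of chromosome 4 are fewer per Mb, as given above, so the 2 densities differ.

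The share of protein-coding genes with a region inside or within 500 bp was also higher on chromosome 4 than on the arms in all 10 lists. In the Zld list 76 of 80 genes had a region, which is 95% against 71.6% on the arms and 72.1% of all genes (adjusted p = 2.41e-06, two-sided Fisher's exact test, Benjamini-Hochberg over 10 lists, as for all list-wise tests here). In the Twi list 79 of 80 genes did, 98.8% against 86.4% on the arms and 85.3% of all genes (adjusted p = 0.000693). In the Grh list 71 of 80 did, 88.8% against 78.1% on the arms and 77.4% of all genes (adjusted p = 0.0202, Fisher's exact test). All 3 main lists were thus called.

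The titration lists of the full-length factors gave the same direction. In the Grh titration list the share was 86.2% against 69.6% on the arms and 70.4% of all genes (Fisher's exact test, adjusted p = 0.00126). In the Zld titration list it was 82.5% against 66.8% and 67.5% (adjusted p = 0.00327). In the HA-Twi titration list it was 82.5% against 65.3% and 66.2% (adjusted p = 0.00126). All 3 passed the test with 66 or 69 genes of 80.

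The DBD lists did so too. The Grh DBD list gave 88.8% against 69.9% on the arms and 69.5% of all genes (Fisher's exact test, adjusted p = 0.000562), and its titration list 82.5% against 68.7% and 68.3% (adjusted p = 0.00814). The Zld DBD list gave 88.8% against 72.7% and 72.1% (adjusted p = 0.00126), and its titration list 86.2% against 69.3% and 69.2% (adjusted p = 0.00126). The genes of chromosome 4 are longer, and the part of gene length in these shares was not tested. Among genes of at least 10090 bp, the median length on chromosome 4, the share on the arms was already between 85% (HA-Twi titration) and 99.1% (Twi), and no list was called. It was 100.0% against 92.8% on the arms in the Zld list and 95% against 96.1% in the Grh list. Among these long genes the difference from the arms lay between −3.1 (Grh DBD titration) and 7.18 (Zld) percentage points. Over genes of all lengths it lay between 10.7 (Grh) and 23.4 (Zld). In lists near 100%, such as Twi (100.0% against 99.1%), the test had little room to call a difference.

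Over all lists, 64 of the 80 protein-coding genes (80.0%) had a region in every one of the 10 lists, against 61% on the arms (p = 0.000466, Fisher's exact test) and 61.6% of all genes. None of the 80 was without a region in every list, whereas 981 genes of the arms (11.2%) were (p = 0.000194, Fisher's exact test). Both tests took genes of all lengths, and the part of the longer genes of chromosome 4 was not tested. The other 16 of the 80 genes had a region in 1 to 9 lists. 5 of them had one in 1 list, and they are named here after their values were seen. JYalpha (a subunit gene of a sodium-potassium ATPase), NfI (a transcription factor of the nuclear factor I family), dpr7 (a cell surface protein of the immunoglobulin superfamily) and Gat (the transporter of the neurotransmitter GABA) had regions in the Twi list. CG32006 had 1 in the Zld list.

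The genes with the most merged regions were toy with 29, PlexA with 28, unc-13 with 27 and zfh2 with 24, followed by sv and Cadps with 22 each. toy (twin of eyeless) is a Pax6 gene that acts at the head of eye development. PlexA is a receptor for semaphorin guidance cues, unc-13 primes synaptic vesicles for release, and zfh2 is a zinc finger homeodomain factor of wing and leg development. sv (shaven) is a Pax2 gene of sense organs, and Cadps acts in the release of dense core vesicles.

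In toy the number of regions ranged widely between lists. It held 20 in the Grh list and 3 in the Grh titration list, 11 in the Zld list and 1 in the Zld titration list, and 27 in the Twi list and 1 in the HA-Twi titration list. The Grh DBD, Grh DBD titration, Zld DBD and Zld DBD titration lists held 8, 4, 9 and 8. Its main lists thus held more regions than the titration lists of the same factor, and 1 of its merged regions was in all 10 lists.

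In PlexA the main lists were likewise the richer ones. It held 24 regions in the Grh list and 9 in its titration list, 19 and 5 in the Zld lists, and 28 and 5 in the Twi lists. The 4 DBD lists held 18, 14, 17 and 15. For the Zld lists the difference of 14 regions between main and titration list was reached by 10 of 8874 genes on these 4 chromosomes (0.113%), and by no other gene of chromosome 4. The difference of 10 regions in toy was reached by 34 (0.383%), 3 of them on chromosome 4. For the Grh lists the differences were less rare: 17 regions in toy was reached by 87 genes (0.98%) and 15 in PlexA by 107 (1.21%). For the Twi lists, 26 in toy was reached by 183 genes (2.06%) and 23 in PlexA by 224 (2.52%). toy and PlexA were picked for having the most merged regions, a number that counts the regions of the main lists. That choice favours a large difference between main and titration list, so the percentages are no test. Main and titration lists come from different libraries and dose series, and their depth is unknown, so these counts describe the lists.

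In zfh2 the lists were closer together, with 9 to 21 regions and 8 merged regions common to all 10 lists. It also holds the widest merged region of the chromosome, 2039 bp at 4:506784-508822, inside the gene and in all 10 lists, with fold enrichments from 8.65 (Grh) to 12.1 (HA-Twi titration). A fold enrichment is the authors' own value for a peak over its background and is read within its list.

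**Figure D2:**
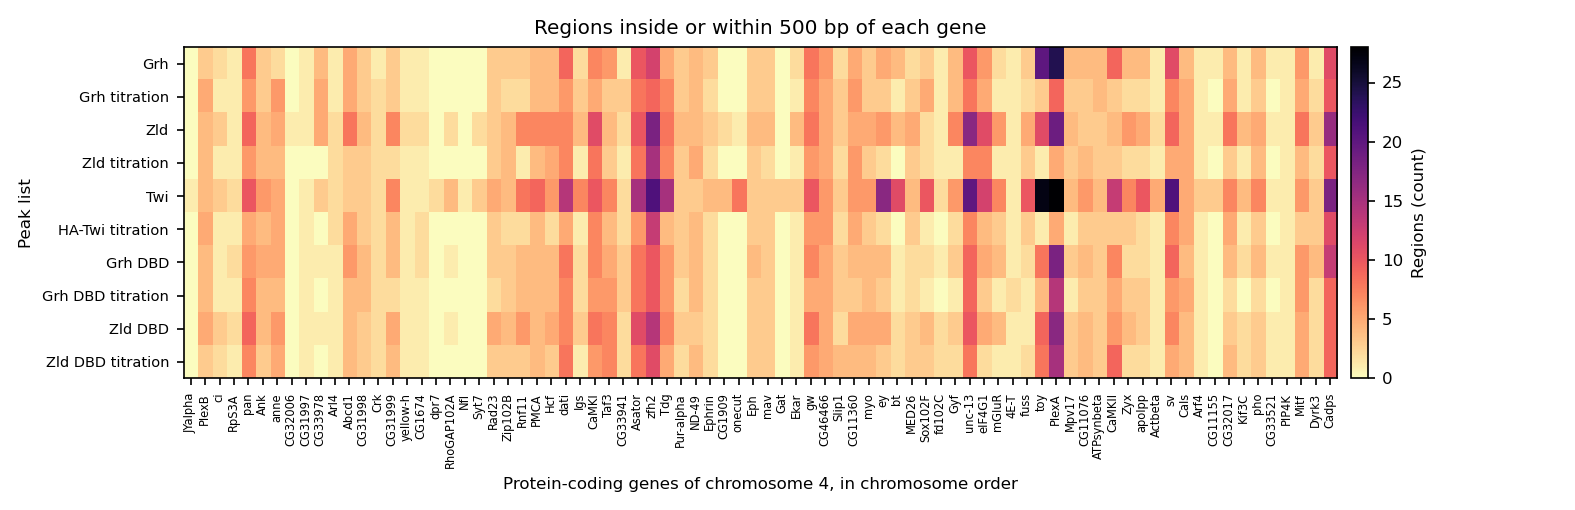
Number of regions inside or within 500 bp of each of the 80 protein-coding genes of chromosome 4 (x axis, in chromosome order) in each of the 10 peak lists (y axis), from pale (0) to black (28). PlexA and toy are dark in the Grh and Twi lists, and pale columns mark genes such as NfI, Gat and dpr7 that had regions in 1 list.

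The 14 developmental transcription factor genes considered (ci, pan, ey, toy, sv, zfh2, Sox102F, onecut, fuss, dati, NfI, pho, Mitf and lgs) had a median of 11.5 merged regions, between 1 and 29, and a median length of 19082 bp. 12 of the 14 had a region in every list and 11 held a merged region common to all 10. ci, the transcription factor of Hedgehog signalling, held 3 merged regions, and pan, the TCF factor of Wnt signalling, held 14 of which 5 were common to all lists. pho, which recruits Polycomb complexes to DNA, held 7 with 2 in common, and ey, the other Pax6 gene, held 18 with 2 in common. The exceptions were NfI, with 1 region, and onecut, a homeodomain factor of neurons, with 8 regions in the Twi list, 1 in the Zld list and none in the other 8 lists.

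The 15 signalling and neuronal genes had a median of 5 merged regions, between 2 and 28, at a median length of 8444 bp. 12 of the 15 had a region in every list, and the same number held a common region. The TGF-beta family ligands myo, Actbeta and mav held 6, 5 and 3 merged regions. The receptor Eph and its ligand Ephrin held 4 each, and the glutamate receptor mGluR 9. The 3 genes without a region in every list were dpr7 and Gat, already named, and Syt7, a calcium sensor of membrane fusion, with 2 regions in the Zld list, 3 in the Twi list and none elsewhere.

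The 15 housekeeping and broadly used genes had a median of 9 merged regions, between 1 and 17, at a median length of 11568 bp. All 15 had a region in every list and all 15 held a common region. ND-49, a subunit of respiratory complex I, held 4 merged regions, each of them in all 10 lists, and RpS3A, a ribosomal protein gene, held 3 with 1 in common. PIP4K, a phosphoinositide kinase, held 1 merged region, which was in all 10 lists. Over all 80 genes the median was 6 merged regions, 64 genes had a region in every list and 63 held a common region, so the groups are to be read against 80.0%.

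Within 500 bp of gene ends, the share of regions on chromosome 4 was called lower than on the arms in 2 lists and did not pass the test in the other 8. In the Zld list 149 of 462 had their summit, the point of highest signal, within 500 bp of the end of a gene, 32.3% (28 to 36.7) against 42.6% on the arms and 42.7% of the whole list (Fisher's exact test, adjusted p = 7.2e-05). In the HA-Twi titration list 104 of 265 did, 39.2% (33.3 to 45.4) against 47.3% on the arms and 47.1% of the list (adjusted p = 0.0455). These were the 2 lists of 10 in which the share was called lower.

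Of the lists that did not pass, some were lower by a similar margin. In the Zld titration list the share was 38.7% against 45.8% on the arms and 45.7% of the list (Fisher's exact test, adjusted p = 0.0623). In the Grh DBD list it was 34.7% against 40.2% and 41.1% (adjusted p = 0.0782), and in its titration list 35.1% against 41.8% and 42.7% (adjusted p = 0.0623). In each of these 3 lists the share on chromosome 4 was 5 or more percentage points lower without passing the test.

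For the Zld DBD titration list the share was 35.7% against 41.2% on the arms and 42.2% of the list (Fisher's exact test, adjusted p = 0.0971), and for the Grh titration list 38.1% against 42.4% and 42.3% (adjusted p = 0.216). The last 3 lists lay close to the arms. In the Zld DBD list the share was 35.5% against 36.3% and 37.7% (adjusted p = 0.856), in the Twi list 27.2% against 27.5% and 28.7% (adjusted p = 0.856) and in the Grh list 34.1% against 33% and 34.2% (adjusted p = 0.823). At this distance the share was lower on chromosome 4 in 9 of the 10 lists, with Grh the exception.

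Fewer bases of chromosome 4 are near a gene end to begin with. Set against the 14.2% of its bases within 500 bp of an end, the share of regions there was 1.91 times (Twi) to 2.76 times (HA-Twi titration) as high. On the arms, where 18.3% of the bases are near an end, the same ratio was 1.51 to 2.59. It was higher on chromosome 4 in every list except Zld, with 2.27 against 2.34. The direction depended on the distance. With 1000 bp the share was lower on chromosome 4 in 3 of the 10 lists and higher in the other lists, by up to 5.34 percentage points (49.9% against 44.5% in the Grh list), and no list was called either way. With the ends of protein-coding genes only, all 10 lists were lower and 7 were called.

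**Figure D3:**
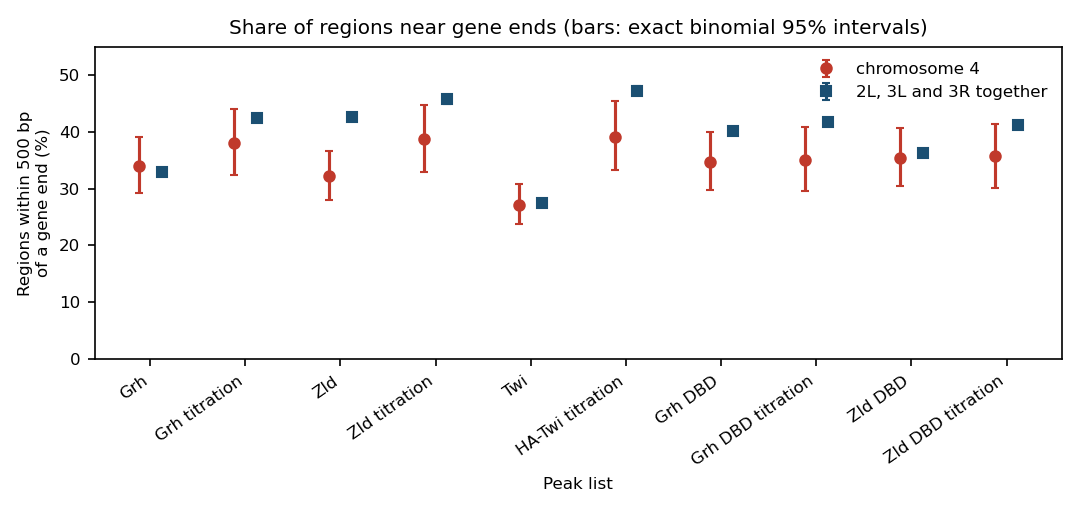
Percentage of regions with the summit within 500 bp of a gene end (y axis) in each of the 10 peak lists (x axis), on chromosome 4 (circles) and on 2L, 3L and 3R together (squares), with exact binomial 95% intervals. The share on chromosome 4 is below that of the arms in 9 of 10 lists, with the widest gap in the Zld list (32.3% against 42.6%).

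Regions of chromosome 4 were strong within their lists. In the Twi list 63.3% were above the median fold enrichment of the list, against 47.5% on the arms and 49.6% over all chromosomes (Fisher's exact test, adjusted p = 7.49e-14). The Grh list gave 62.9% against 46.3% and 49.4% (adjusted p = 7.4e-10), and the Zld DBD list 62.2% against 46.1% and 49.6% (adjusted p = 5.81e-09). The median fold in the Grh list was 2.84 on chromosome 4 and 2.18 on the arms.

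4 further lists were called in this direction. The Grh DBD list gave 59.1% against 47.1% on the arms and 49.7% of the list (Fisher's exact test, adjusted p = 2.75e-05) and its titration list 57.9% against 47.5% and 50% (adjusted p = 0.000851). The Zld DBD titration list gave 59% against 46.9% and 49.8% (adjusted p = 6.64e-05), and the Grh titration list 59.1% against 49.5% and 49.9% (adjusted p = 0.00198). The call was thus made in all 6 lists of Grh and of the DBDs, and in the Twi list.

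The lists of full-length Zld and the HA-Twi titration list were not called higher. In the Zld list 44.4% of the regions of chromosome 4 were above the list median, against 49.3% on the arms and 50% of the list (Fisher's exact test, adjusted p = 0.0481), so that here the share was lower. The Zld titration list gave 52% against 49.3% and 50% (adjusted p = 0.442), and the HA-Twi titration list 51.3% against 49.8% and 50% (adjusted p = 0.621). Among the top 10% of each list by fold, the share of chromosome 4 was called higher in all 10 lists, the Zld list included (13% against 10.1%, adjusted p = 0.0426). On chromosome 4 the Zld list thus had a smaller share of its regions above the median than on the arms and a larger share in the top 10%.

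Of the 725 merged regions of chromosome 4, 182 were in all 10 lists. This is 25.1% (22 to 28.4), against 18.6% on the arms together and 20.5% of all merged regions (p = 1.51e-05, two-sided Fisher's exact test). By arm the share was 19.3% on 2L, 19.9% on 3L and 17.1% on 3R. At the other end, 231 merged regions of chromosome 4 (31.9%) were in 1 list, against 41.1% on the arms. Per Mb the common regions were 138 on chromosome 4, 129.7 on 2L, 123 on 3L and 124 on 3R, so chromosome 4 differed less in its density of common regions than in the number of regions of few lists.

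The higher share of common regions was not stable. It was 34.3% against 31.7% on the arms with regions of a −log10 q of at least 10 (p = 0.269, Fisher's exact test) and 35.9% against 33.8% with lists made equal in length (p = 0.348). Counted from the regions of the shortest list with no merging, 70.6% were in all lists against 70.5% on the arms (p = 1, Fisher's exact test).

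The regions common to all lists differed from the others of chromosome 4 in place and width. Their median width was 283 bp, 84 of them (46.2%) lay within 500 bp of a gene end and 90 (49.5%) lay inside a gene. In this paragraph, inside a gene means inside a protein-coding gene, while gene ends are those of any gene. Of the 312 regions in 2 to 9 lists, 64 (20.5%) were near an end and 230 (73.7%) inside a gene, with a median width of 200 bp. Of the 231 in 1 list, 37 (16%) were near an end and 189 (81.8%) inside a gene, with a median width of 82 bp. Regions merged from more lists are wider in part by construction. Counted list by list, 43.7% (Zld) to 46.4% (Grh) of the regions of chromosome 4 in the common set were near an end. On the arms 50.8% (Zld DBD) to 51.8% (Zld titration) were, and no list was called. The place of common regions near gene ends was thus not particular to chromosome 4.

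**Figure D4:**
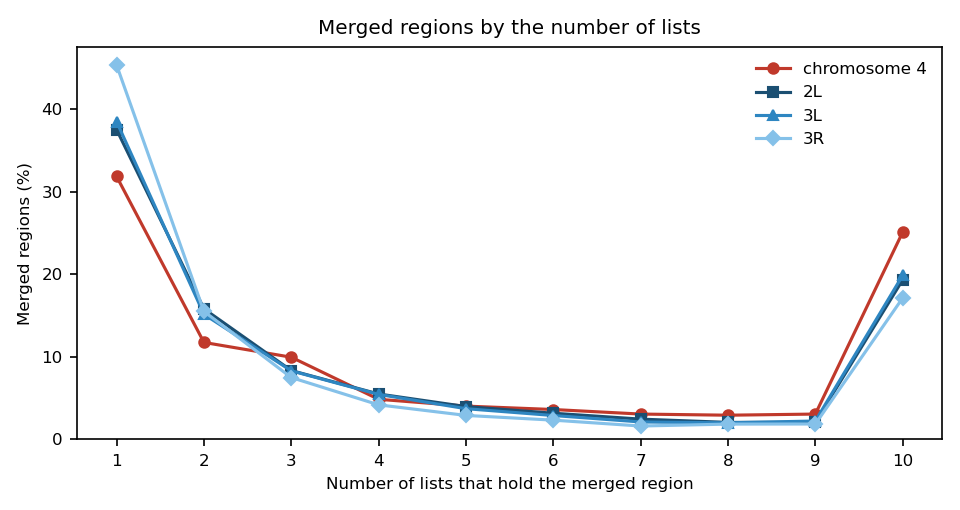
Percentage of the merged regions of each chromosome (y axis) that are held by 1 to 10 of the lists (x axis), for chromosome 4 (circles), 2L (squares), 3L (triangles) and 3R (diamonds). Chromosome 4 lies lowest at 1 list (31.9%) and highest at 10 lists (25.1%).

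Of the 182 regions common to all lists, 46.2% lay within 500 bp of a gene end. The strongest of them, by mean percentile of the fold enrichment within each list, lay mostly at gene ends. The first was 39 bp from the end of Gyf, which codes for a GYF domain protein, at 4:866964-867303. Its fold enrichment was 23.5 in the Grh list and 41.5 in the Grh titration list, 40.5 and 36 in the Zld and Zld titration lists, and 20.3 and 47.9 in the Twi and HA-Twi titration lists. In the Grh DBD list and its titration list it was 26.6 and 23.9, and in those of the Zld DBD 24.5 and 30.5. Values of different lists are not comparable, and the region was strong within each.

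The second, 29 bp from an end of the semaphorin receptor gene PlexB (4:43689-43941), had folds from 13.4 (Twi) to 42.2 (HA-Twi titration). The third lay 64 bp from an end of CG31998 (4:205877-206137; 17.7 to 32.4). The region 56 bp from an end of apolpp, the precursor of the lipid carrier apolipophorin, lay inside its neighbour Zyx, a gene of a focal adhesion protein (4:1060813-1061052; 16.5 to 34.3). 3 more were at gene ends as well. They lay 21 bp from Rad23, a ubiquitin receptor of DNA repair (4:307892-308190; 15.2 to 34.5), 32 bp from Crk, a signalling adaptor (4:210082-210361; 14.3 to 29.2), and 101 bp from Arf4, a small GTPase of membrane traffic (4:1123930-1124239; 12.8 to 33).

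The remaining 3 of the first 10 lay farther from an end than these. 1 was inside CaMKII, a calcium-dependent kinase of synapses, 2275 bp from the nearest end (4:1051267-1051583; 13.7 to 37.5). 1 was inside Eph, 435 bp from an end (4:610998-611223; 12.7 to 45). The last was 10941 bp from Cadps, outside any protein-coding gene of the table (4:1282597-1282799; 12.9 to 35.6).

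Regions of 1 factor were rare on chromosome 4. They are merged regions in both the main and the titration list of a full-length factor and in none of the 4 full-length lists of the other factors. Grh had 2 on chromosome 4, or 0.276% of its merged regions (0.0334 to 0.993), against 472 on the arms (0.838%) and 0.827% of all merged regions (Fisher's exact test, adjusted over 3 factors, p = 0.427). Zld had 2, which is 0.276% against 0.273% and 0.385% (adjusted p = 0.736), and Twi had 1, which is 0.138% against 0.33% and 0.333% (adjusted p = 0.736). With 5 such regions in all, no difference from the arms was detectable for any factor.

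Each of the 5 lay inside a protein-coding gene, as did 70.2% of all merged regions of chromosome 4. Those of Grh and Zld were weak in both lists. The Grh regions were in Tdg, a thymine DNA glycosylase of DNA repair (4:551033-551189), with folds of 1.6 in the Grh list and 2.64 in its titration list, and in PlexA (4:1023059-1023258), with 1.68 and 2.88. The PlexA region was also in the Grh DBD titration list, with 1.96. The Zld regions were in Hcf, a chromatin cofactor (4:370041-370116), with folds of 2.31 and 1.69, and in eIF4G1, the scaffold of translation initiation, 233 bp from an end (4:930439-930529), with 2.61 and 2.92. The Twi region was in Taf3, a subunit of the general transcription factor TFIID (4:465683-465909), with 2.29 and 1.77. The median fold on chromosome 4 was 2.03 in the Twi list and 5.8 in the HA-Twi titration list, so this region was weak in the titration list only. It was also in 3 DBD lists, with 2.49 in the Grh DBD titration list, 2.01 in the Zld DBD list and 1.92 in its titration list.

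Chromosome 4 differed more from the arms when the 3 main lists were compared among themselves. 57 of the 442 merged regions of the Zld list were absent from the Grh and Twi lists, 12.9% (9.92 to 16.4), against 6.32% on the arms and 7.75% over all chromosomes (Fisher's exact test, adjusted p = 6.47e-07). Per Mb this is 43.2 regions on chromosome 4 against 16 on 2L, 16.1 on 3L and 13 on 3R. In the Grh list 8 of 354 were absent from the other main lists, 2.26% (0.981 to 4.4) against 10.9% and 10.2% (adjusted p = 2.01e-09). In the Twi list 177 of 599 were, 29.5% (25.9 to 33.4) against 44.9% and 42.5% (adjusted p = 7.53e-14).

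The Zld list thus had the larger share of regions of its own on chromosome 4, and the Grh and Twi lists the smaller. With regions of a −log10 q of at least 10 the Zld share was 10.1% against 6.53% (Fisher's exact test, adjusted p = 0.0404), the Twi share 27.4% against 36.1% (adjusted p = 0.0021), and the Grh share 0.51% against 2.54%, which no longer passed (adjusted p = 0.0993). With lists made equal in length the shares were 18.4% against 10.6% for Zld (adjusted p = 0.000169), 6.45% against 11.4% for Grh (adjusted p = 0.0115) and 8.21% against 14.4% for Twi (adjusted p = 0.00369). This comparison was chosen after its values were seen.

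**Figure D5:**
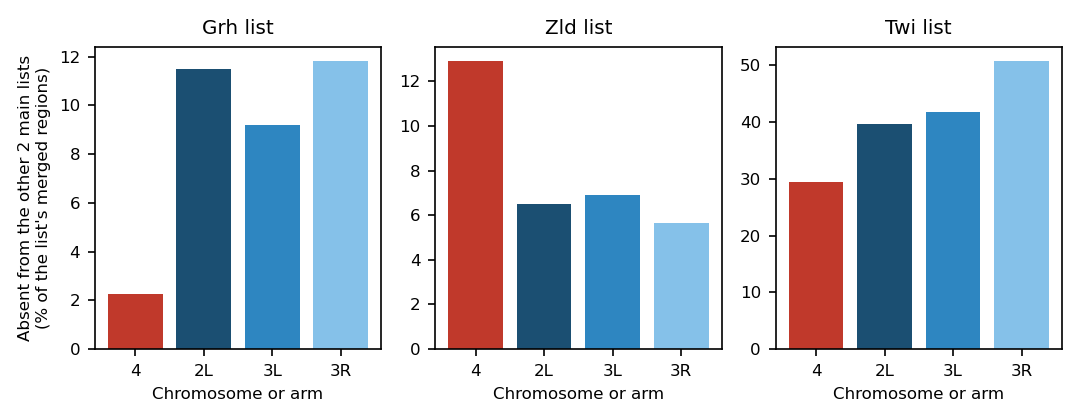
Percentage of the merged regions of the Grh, Zld and Twi main lists (3 panels, each with its own y axis from 0) that are absent from the other 2 main lists, on chromosome 4 and on 2L, 3L and 3R (x axis). The bar of chromosome 4 is the lowest for Grh (2.26%) and Twi (29.5%) and the highest for Zld (12.9%).

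The 57 regions held by the Zld list alone among the main lists were narrow and weak. Their median width was 87 bp, the same as for the 177 regions of the Twi list alone among the main lists. It was 100.5 bp for the 8 of the Grh list and 82 bp for the 231 regions in 1 list. The narrow width was thus not particular to Zld. The median fold of the 57 was 2.33 (1.75 to 6.81), where the median of the whole Zld list was 3.85, and 2 of the 57 were above it. 10 had a −log10 q of at least 10. 45 (78.9%) lay inside a protein-coding gene, against 70.2% of all merged regions of chromosome 4 and 84.7% of those of the Twi list alone. 16 (28.1%) lay within 500 bp of an end of any gene, against 25.5% and 15.3%. The 57 had 34 different nearest genes.

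Few of them recurred elsewhere. 40 of the 57 were in no other list, 10 were also in the Zld titration list and the same number in the HA-Twi titration list. 5 were in the Grh titration list, 5 in the Zld DBD list and 4 in the Zld DBD titration list. The strongest lay inside Cadps (4:1256366-1256564), with a fold of 6.81 in the Zld list, 8.39 in the Zld titration list, 9.14 in the Grh titration list and 4.16 in the HA-Twi titration list. With such regions left out on both sides, the Zld list held 307 regions per Mb on chromosome 4 and 236 on the arms. Of these, 50.1% on chromosome 4 and 52.2% on the arms were above the list median, and 33.1% and 43% were near a gene end. Since the regions left out were weak, the shares above the median had to rise, and these values are given as a description.

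Over all 10 lists, the regions held by 1 list came mostly from the Twi list, on chromosome 4 as on the arms. It held 146 of the 231 on chromosome 4 (63.2%), against 71.6% on the arms and 69.5% over all chromosomes. The Zld list held 40 (17.3%), against 3.05% on the arms and 4.11% over all chromosomes, and the Grh list held 4 (1.73%), against 9.59% and 9.35%. These shares restate the comparison of the main lists above and were not tested again. The Grh titration list held 16 (6.93%, against 6.82% on the arms), and each of the other 6 lists 1 to 8. The Twi list is also the longest of the series, with 71754 regions, and the Zld list with 33943 is shorter than the Grh list with 44658.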

How the data were processed

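ATAC-seq of S2 cells was analysed from 10 deposited peak lists with positions in dm6. Bowtie2, MACS2, featureCounts, DESeq2 and deepTools 3.5.1 are named in the submitters' processing notes. Their roles and settings, and any shift of reads for the transposase, are not stated there. In the lists as deposited, each peak has a score, a fold enrichment, which is a ratio over the local background, and a −log10 q of at least 1.3, all computed by the authors. In 8 lists the rows give a summit, except 0 to 9 rows per list, of which 0 were on chromosome 4. Peaks of the DBD titration lists are 200 bp windows without a summit. Midpoints were used where no summit was given.

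Rows with the same peak number were joined and took their strongest summit. Regions of different lists were merged where they overlapped by at least 1 bp. Distances were taken to either end of any gene of the RefSeq table of Release 6, used without strand or exons. A region's nearest gene is the protein-coding gene with the closest end. All 44 symbols of the 3 gene groups matched, 1 by synonym. The tests of shares were Fisher's exact tests, two-sided, with a threshold of 0.05 on the adjusted p. Named were genes of the 3 groups, genes nearest to regions of 1 factor and to the 10 strongest common regions, genes with no region (there were none) and the 5 genes with the most regions. The members and gene groups were chosen with earlier results of these data known.

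Other settings tried were stricter peaks (−log10 q of 10 or more), the strongest 25397 regions of each list, arms with or without the 5 Mb next to the centromere, rows not joined, distances of 200 and 1000 bp, ends of protein-coding genes, overlap of 50%, no merging, full-length lists alone, each list left out, main lists alone, the top 10% by fold, all genes, gene bodies alone and long genes. Motif shares and distances to gene starts were not computed, since no genome sequence or strand was used here. The overlap, merging and distance steps and the tests were tested on simulated data. Software was Python 3.11.15 with scipy 1.17.1, pandas 2.3.3, numpy 2.4.6 and matplotlib 3.10.9.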

Additional observations from a re-analysis of the deposited data

How the results depend on the processing

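No paired analysis was possible because each list covers several libraries and none gives a value per replicate. The alternative with gene starts as the only ends was not run, for want of strand. The cause of each change below was not tested.

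The Zld density ratio of 1.39 was 1.24 without the 5 Mb next to the centromeres and 3.14 against them alone. With stricter peaks it was 1.28, below the 1.33 of the Grh DBD list, and with lists of equal length 1.29. Chromosome 4 was denser than each arm in 4 lists, and in 9 with stricter peaks (−log10 q of 10 or more), 7 with lists of equal length, 1 without the 5 Mb, 1 with rows not joined and 7 against the 5 Mb alone. The share near gene ends was called lower in 2 lists, and in 1 with stricter peaks, 4 with lists of equal length, 4 without the 5 Mb, 1 with rows not joined, 0 at 1000 bp, 7 with ends of protein-coding genes, 0 against the 5 Mb alone and 0 for common regions only. At 1000 bp it was lower in 3 lists and higher in the other 7, against the 5 Mb alone it was lower in 7 and for common regions in 10. The share of genes with a region was called higher in 10 lists, in 6 with all genes and in 0 with long genes, where it was −1.07 points for Grh, −3.1 for the Grh DBD titration and −0.769 for the Zld DBD titration. In the top 10% by fold the Zld difference turned to +2.92 points.

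The share common to all lists was higher on chromosome 4 by 2.56 points with stricter peaks, 2.11 with lists of equal length, 0.476 at 50% overlap and 0.0763 without merging, none of which passed. With each list left out in turn it was 5.19 to 7.65 points higher (largest p = 0.0051, Fisher's exact test). Twi-only regions differed by −1.12 points with stricter peaks (adjusted p = 0.0493). With main lists alone, as a share of all merged regions, the differences were −4.2 points for Grh, 5.65 for Zld and −13.4 for Twi. As a share of the list they were −8.63, 6.57 and −15.3, with stricter peaks they were 3.54 for Zld and −8.7 for Twi, and with lists of equal length −4.95, 7.8 and −6.2.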

Other observations

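Merged regions covered 11.2% of chromosome 4, with a median width of 194 bp and a median gap of 663 bp between neighbours. The widest stretches without a region in any list were 4:3271-42483 (39213 bp), which holds part of JYalpha and most of PlexB, 4:275986-301305 (25320 bp) over the end of NfI and most of Syt7, and 4:1199711-1218574 (18864 bp) inside Mitf, a regulator of lysosomal genes. These genes were chosen after their values were seen.

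The muscle gene bt, which codes for the giant protein projectin, held 15 merged regions and none of them was in all 10 lists. It held 11 regions in the Twi list, 4 in the Grh list, 4 in the Zld list, and none in the Zld and HA-Twi titration lists. onecut gave 8 regions in the Twi list against none in the HA-Twi titration list, and ey 17 against 2. The Twi list is the longer of these lists, with 615 regions on chromosome 4 against 265. Some genes held more regions in the Grh titration list than in the Grh list, among them anne (6 against 2), PlexB (5 against 3) and CG33978 (5 against 4). Others, such as toy and PlexA above, held fewer. The genes of this paragraph were chosen after their values were seen, and the share of all genes with such differences was not counted.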
